A study of Mus musculus with 20 samples.

Results

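The genes described here are the 9 visual cycle and retinoid handling genes of photoreceptors and Muller glia chosen by name for their function: Rdh8, Rdh12, Rdh11, Rdh13, Dhrs3, Rdh10, Abca4, Rbp3 and Rlbp1. Earlier results of these data were known when these genes were chosen. They are 9 of the 35006 named genes in each count file, all 9 were found in all 20 files, and all 9 passed the filter on low counts in every comparison. Messenger RNA was sequenced from 20 retinas of C57BL/6J mice, an inbred wild-type laboratory strain, with 1 library per mouse. The question was how the retinal transcriptome differed with age and with NACET, the ethyl ester of N-acetyl-L-cysteine, which enters cells readily and feeds cysteine and glutathione synthesis. Young controls (4 mice, 119 days) and old controls (4 mice, 668 days) received no NACET. Young NACET mice (6 mice; 4 of 129 days and 2 of 119 days by their titles) and old NACET mice (6 mice; 2 each of 668, 581 and 574 days) drank water with NACET for 5 days, at a daily intake of 50 mg/kg. The old NACET group therefore held 4 mice younger than every old control, and for these 4, age and treatment cannot be told apart. The 4 young NACET mice of 129 days were older than every young control, with the same limit. The labels name no transgene or deletion in any group.

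The libraries held 17.7 to 31.1 M gene counts each, and the least counted of the 9 genes in any library, Rdh10, still had 560 counts. The library of old control replicate 4 was labelled male but held 59555 counts of Xist, the RNA that coats the inactive X chromosome of female cells, and 1 count over Y-linked genes. Without it, as with it, edgeR called 0 of the 9 genes with age in controls, with NACET in old mice and in the interaction of both. For young NACET replicate 6 the title gives 119 days and the batch tag 129 days. Of the young mice, 4 were labelled female, whereas the study describes males. They were young control replicates 3 and 4 and young NACET replicates 5 and 6. All old mice were labelled male, so labelled sex differed in part between the ages. Keratins and other genes of the corneal epithelium, which the retina lacks, had a summed level from 0.836 to 559 CPM (counts per M gene counts of a library), with a mean log2 level above 2 in young NACET replicates 2 to 5 and old control replicate 2. The 12 markers of the retinal pigment epithelium, the cell layer behind the photoreceptors, summed to 57.4 to 244 CPM.

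In the visual cycle, light turns the cis-retinal of opsin into all-trans-retinal, which photoreceptors must clear, reduce to retinol and pass to neighbouring cells that rebuild the cis form. ABCA4 moves retinal bound to lipid out of the disc lumen, retinol dehydrogenases of the RDH and DHRS families reduce it, and the matrix protein RBP3 (interphotoreceptor retinoid-binding protein) carries retinoids between photoreceptors, pigment epithelium and Muller glia. Muller glia, the radial glia of the retina, hold cis-retinoids on RLBP1 (cellular retinaldehyde-binding protein) and are thought to serve cones through a cycle of their own. Defining markers of the labelled tissue were abundant in every library. The rod transducin gene Gnat1 stood at 14460 to 22010 CPM, the cone transducin gene Gnat2 at 198 to 317 CPM and the Muller gene Glul at 1224 to 1793 CPM.

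The start regions of the genes on which the results turn are printed because the 4 photoreceptor genes among them varied together across libraries. RefSeq promoter windows on GRCm38.p6 (250 bases before to 50 after the annotated start) were matched for 7 of the 9 genes. Rdh10 and Rdh13 had no entry. Capitals mark TAATCC, the core recognised by the photoreceptor homeodomain factors CRX and OTX2, and TGCTGA, a core of MAF-family factors such as NRL, on either strand; these motifs do not overlap each other in the windows. On the opposite strand they read GGATTA and TCAGCA. The windows lie on the plus strand at chr14:33953753-33954052 for Rbp3, chr3:122044210-122044509 for Abca4, chr12:79208663-79208962 for Rdh12 and chr9:20818244-20818543 for Rdh8.
Rbp3: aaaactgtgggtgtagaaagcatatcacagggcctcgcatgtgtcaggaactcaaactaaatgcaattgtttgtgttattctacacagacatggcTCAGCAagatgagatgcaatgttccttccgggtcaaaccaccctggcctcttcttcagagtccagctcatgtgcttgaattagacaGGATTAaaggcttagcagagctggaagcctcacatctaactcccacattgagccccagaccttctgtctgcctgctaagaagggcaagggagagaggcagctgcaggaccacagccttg
Abca4: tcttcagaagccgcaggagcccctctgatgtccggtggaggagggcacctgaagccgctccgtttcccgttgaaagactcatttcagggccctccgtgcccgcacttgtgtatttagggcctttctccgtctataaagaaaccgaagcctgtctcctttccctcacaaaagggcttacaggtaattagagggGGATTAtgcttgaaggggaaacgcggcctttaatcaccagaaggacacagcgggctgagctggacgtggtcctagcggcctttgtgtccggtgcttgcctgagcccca
Rdh12: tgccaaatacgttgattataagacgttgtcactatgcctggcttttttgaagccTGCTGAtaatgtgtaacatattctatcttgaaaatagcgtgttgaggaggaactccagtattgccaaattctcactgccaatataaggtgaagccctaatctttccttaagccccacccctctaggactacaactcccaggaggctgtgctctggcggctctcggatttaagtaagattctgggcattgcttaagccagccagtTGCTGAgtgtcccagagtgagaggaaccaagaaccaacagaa
Rdh8: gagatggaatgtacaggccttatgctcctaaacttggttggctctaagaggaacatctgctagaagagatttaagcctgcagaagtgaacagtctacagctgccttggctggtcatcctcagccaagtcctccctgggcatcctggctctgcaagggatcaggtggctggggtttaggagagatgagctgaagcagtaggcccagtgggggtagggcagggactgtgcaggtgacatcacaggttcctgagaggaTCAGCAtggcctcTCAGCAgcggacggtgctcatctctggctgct
TAATCC was found in 2 of the 7 genes, at -69 to -64 from the start in Rbp3 and at -58 to -53 in Abca4. Of 32851 RefSeq mouse promoter windows of the same length, 7.06% held it. TGCTGA was found in 4 of the 7 genes (Rbp3, Rdh12, Rdh8 and Rlbp1), against 19.5% of all windows. The core TGACNNNGC of the antioxidant response element, which NRF2 binds, was in 0 of the 7 genes and in 12.4% of all windows. Rdh11 had 2 windows and Dhrs3 had 3, all without a match to these motifs. Shares counted by gene and by window are therefore not alike. A match of letters is no evidence of a bound site, and a window without a match says nothing about the factor.

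Levels spanned more than 2 orders of magnitude once counts were divided by exon length, and their order is shown in the plot of length-scaled levels. Rbp3 was the most abundant, with a mean of 1378 CPM per kb over the 20 libraries, 6.96 times the mean of Abca4. Abca4 (198 CPM per kb), Rdh12 (170) and Rlbp1 (164) were neighbours whose ranges overlapped. Abca4 exceeded Rdh12 in 19 of 20 libraries, whereas Rdh12 exceeded Rlbp1 in only 12 of 20. Exon lengths cover all annotated transcripts of a gene (11 for Abca4, 4 for Rdh12 and 1 for Rlbp1). They come from an annotation that may differ from the one used for counting. Counts of libraries do not measure that uncertainty. Below them stood Rdh8 (75.2 CPM per kb), Dhrs3 (29.2), Rdh11 (20.2), Rdh10 (9.37) and Rdh13 (5.17), each above the next in 20 of 20 libraries. As a share of all gene counts, Rbp3 took 0.727% and ranked 5 among all genes by mean CPM, and Abca4 took 0.234% and ranked 21.

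**Figure D1:**
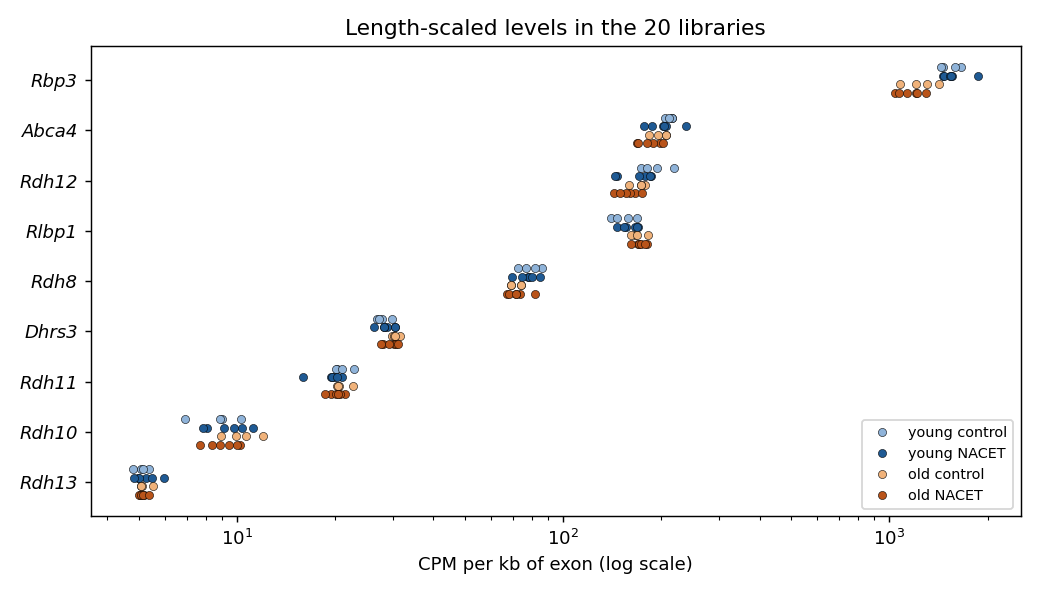
Levels of the 9 genes in CPM per kb of annotated exon (horizontal log axis), 1 point per library, coloured by group. Rbp3 lay at 1037 to 1873 CPM per kb, above every other gene, while the points of Abca4, Rdh12 and Rlbp1 overlapped.

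The genes sit at separate loci of the mm9 assembly. Rbp3 spans chr14:34767208-34777402 and Abca4 chr3:121747361-121882979. Rdh12 (chr12:80309901-80323652) and Rdh11 (chr12:80275324-80293280) are neighbours with opposite strands. Rdh8 spans chr9:20622948-20630607, Rdh13 chr7:4376372-4397251, Dhrs3 chr4:144482730-144518112, Rdh10 chr1:16095855-16123815 and Rlbp1 chr7:86519757-86531913. Counting covered exons of each gene as a whole. Exon bases shared with another annotated gene numbered 96 in Rdh13 and 16 in Abca4, and 0% of the 50-base stretches of any of the 9 genes occurred in another coding gene. The coding sequences of the closest relatives, Rdh11 and Rdh12, were identical at 70.5% of aligned bases.

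Rbp3 was lower in old retinas, and it was the only one of the 9 genes to pass the edgeR test in any comparison. The 4 young controls held 8738, 7714, 8414 and 7596 CPM, and the 4 old controls 5706, 7490, 6379 and 6872 CPM. Young NACET libraries ranged from 7712 through a median of 8110 to 9881 CPM, and old NACET libraries from 5473 through 6183 to 6814 CPM. Every old library lay below every young library, with or without NACET. Between NACET groups the mean fell from 8297 ± 801 to 6118 ± 507 CPM (SD, n = 6 in each). On the log2 scale this was -0.49 (SE 0.0878, 95% interval -0.678 to -0.307), which passed the threshold (edgeR, adjusted p = 0.00357). Between controls the mean was 8116 ± 550 in young and 6612 ± 756 CPM in old mice (SD, n = 4 each), a log2 change of -0.34 (SE 0.105, 95% interval -0.573 to -0.115). This missed the threshold after adjustment (edgeR, adjusted p = 0.132). DESeq2, the tool of the study, called it at an adjusted p of 0.0190, in a test that called 721 genes against 234 by edgeR. The cone marker Gnat2 was also lower in old NACET than in young NACET mice, by a log2 change of -0.28 (edgeR, adjusted p = 0.0294), and its part in the Rbp3 values was not tested. In whole retinas, fewer cells of a type and less RNA per cell cannot be told apart.

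Leaving out single libraries changed no call of Rbp3. Without old control replicate 4, the log2 change between controls was -0.37 (edgeR, adjusted p = 0.224). Without old control replicate 1, the lowest of its group, it was -0.25. The change between NACET groups was called without each of the 12 libraries in turn, at -0.53 to -0.42. With the old NACET mice restricted to the 2 of 668 days, it was -0.54 and missed the threshold (edgeR, adjusted p = 0.128).

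NACET was not accompanied by a detectable difference of Rbp3 at either age. Old NACET libraries stood at a log2 change of -0.12 from old controls (SE 0.0794, 95% interval -0.292 to 0.0478), and young NACET libraries at 0.02 from young controls (SE 0.111, 95% interval -0.215 to 0.261). The difference between these changes, the interaction of NACET with age, was -0.15 (SE 0.133, 95% interval -0.424 to 0.128; edgeR, adjusted p = 0.935). These comparisons and those of age share the same control libraries.

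**Figure D2:**
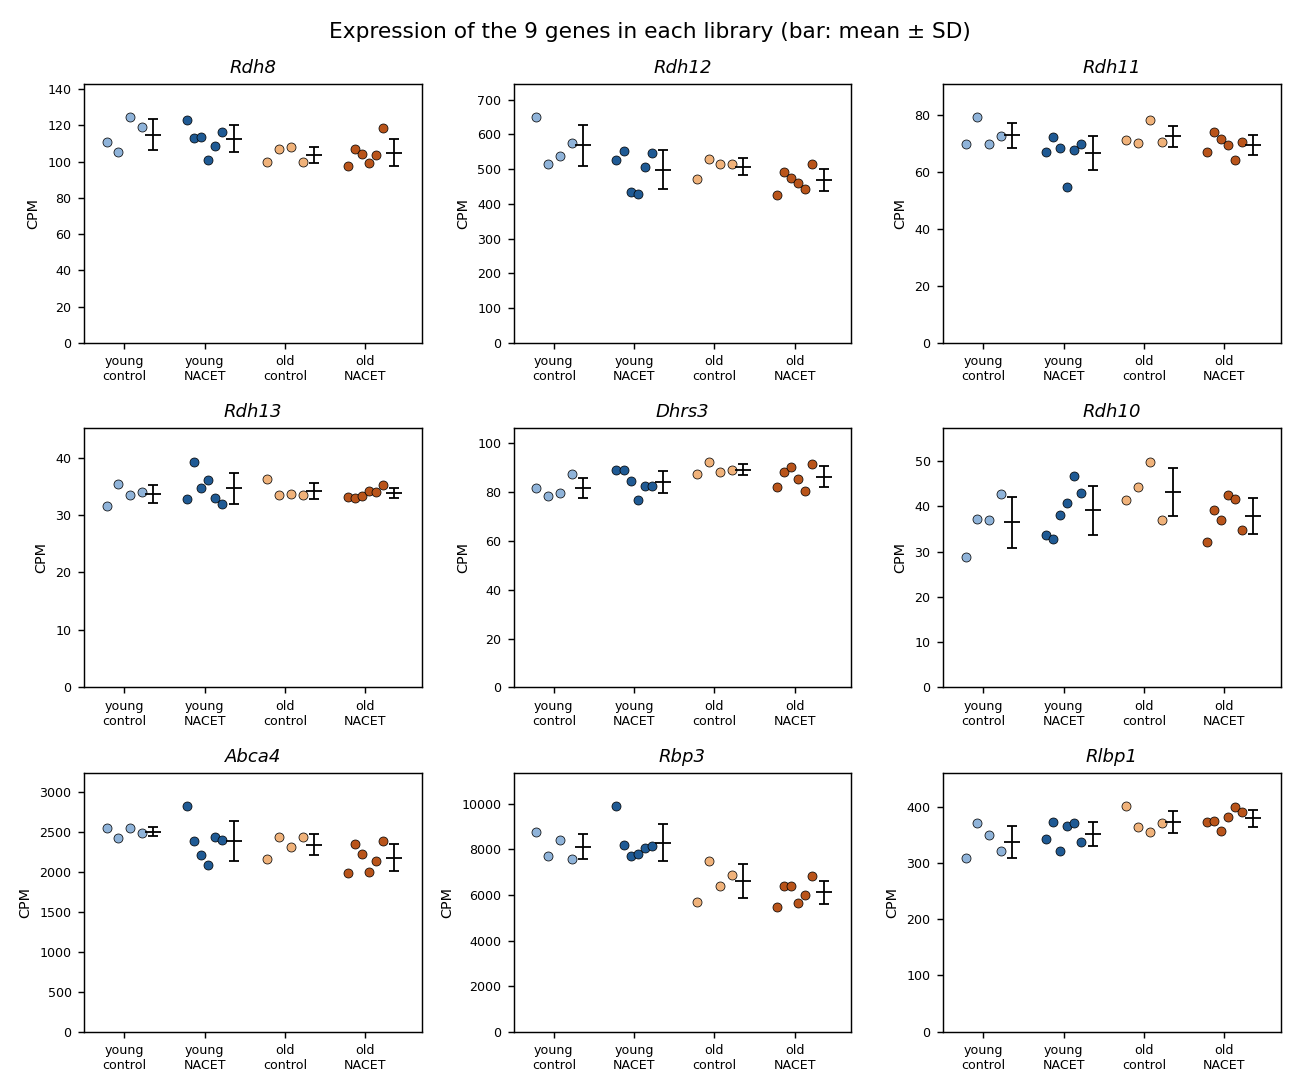
CPM of the 9 genes (vertical axis, from 0) in each library of the 4 groups, with mean ± SD of the group as bars. All old points of Rbp3 lie below all its young points, whereas the other 8 genes overlap between old and young libraries and between the groups of each comparison made.

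Counts over the 9 genes were read against those over all genes tested. With age in controls, 0 of 9 were called by edgeR at an adjusted p under 0.05 (1.42% of all genes tested were), 3 (Rbp3, Rdh8 and Rdh12, all lower) had an unadjusted p under 0.05 (16.3% of all genes), and 1 did not overlap in CPM between groups (11.3%). With age under NACET, 1 of 9 was called (4.88%), 3 (Rbp3, Rdh8 and Abca4, all lower) had an unadjusted p under 0.05 (21.1%) and 1 did not overlap (4.07%). With NACET in old mice, 0 of 9 were called (0.543%), 1 (Rdh10, lower) had an unadjusted p under 0.05 (14.4%) and 0 were without overlap (3.57%). With NACET in young mice the counts were 0 called (0% of all genes by edgeR, and 0 genes by DESeq2), 0 under the unadjusted threshold (4.36%) and 0 without overlap (0.723%). In the interaction, 0 were called (0% by edgeR, whereas DESeq2 called 86 genes, 0 of them among the 9) and 0 had an unadjusted p under 0.05 (6.19%). The loss of overlap between all 10 old and all 10 young libraries, seen in Rbp3, was found in 1.28% of all genes. Median log2 changes over the 9 genes were -0.06 with age in controls, -0.10 with age under NACET, -0.07 with NACET in old mice and 0.02 with NACET in young mice, and the medians over all genes tested lay between -0.01 and 0.01.

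**Figure D3:**
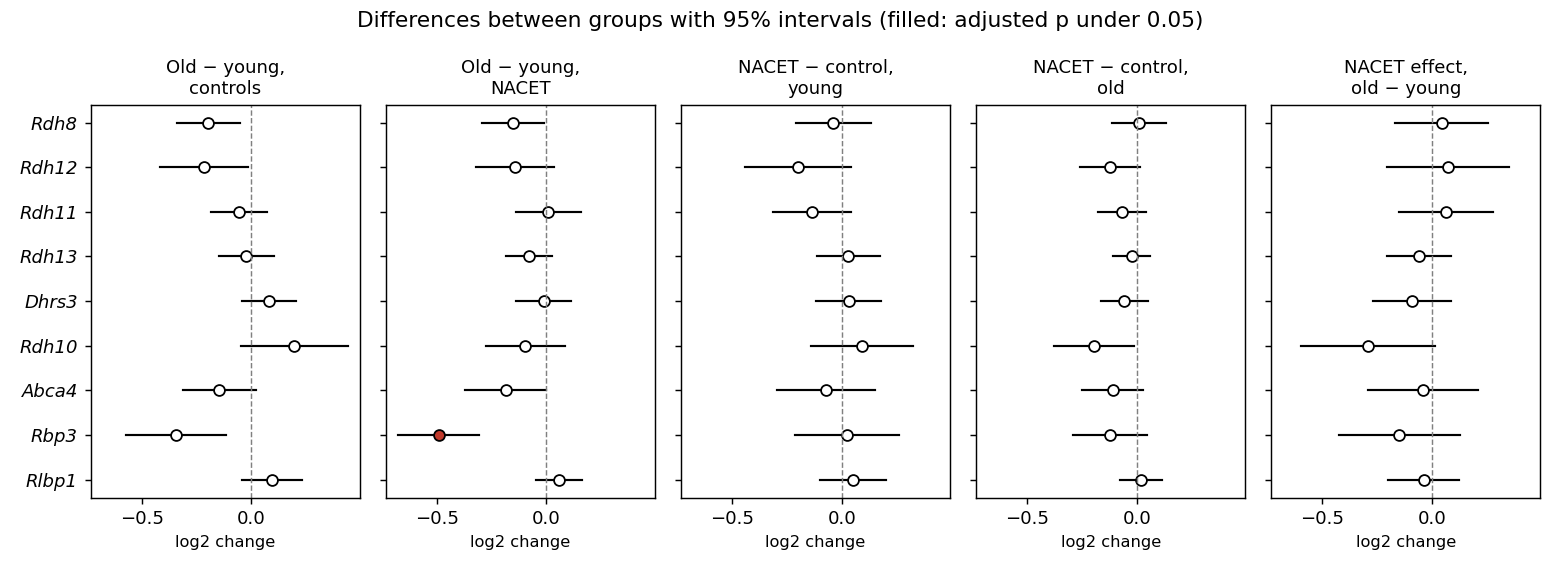
Log2 changes of the 9 genes (points) with 95% intervals (lines) in 5 comparisons; a filled point passed an adjusted p of 0.05. Only Rbp3 in old against young NACET mice is filled, at -0.49, and the intervals of most other genes include 0.

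Abca4, the lipid and retinal transporter of the disc rims, had lower means in old mice without passing the test. The young controls held 2553, 2433, 2547 and 2492 CPM, and the old controls 2166, 2444, 2315 and 2442 CPM. The groups overlapped, with 2 of 4 old controls below all young controls. The log2 change was -0.15 (SE 0.0771, 95% interval -0.314 to 0.0228; edgeR, adjusted p = 0.380). Young NACET libraries ranged from 2093 through 2396 to 2824 CPM and old NACET libraries from 1993 through 2181 to 2389 CPM, a change by -0.19 on the log2 scale (SE 0.0864, 95% interval -0.370 to -0.00438; edgeR, adjusted p = 0.225). Its changes with NACET were -0.11 in old mice (95% interval -0.248 to 0.0287) and -0.07 in young mice (95% interval -0.297 to 0.152).

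Rdh8, the retinol dehydrogenase of photoreceptor outer segments, also had lower means in old mice. The young controls held 111, 106, 124 and 119 CPM, and the old controls 100.04, 107, 108 and 99.95 CPM. Of the old controls, 2 lay below all young controls and the others lay within the young range. The log2 change was -0.20 (SE 0.0659, 95% interval -0.340 to -0.0520; edgeR, adjusted p = 0.173). Under NACET the young libraries ranged from 101 through 113 to 123 CPM and the old ones from 97.6 through 104 to 119 CPM, a change by -0.15 on the log2 scale (SE 0.0669; edgeR, adjusted p = 0.202). NACET itself was accompanied by changes of 0.01 in old mice (95% interval -0.113 to 0.132) and -0.04 in young mice (95% interval -0.209 to 0.132).

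Rdh12, the inner-segment dehydrogenase whose loss causes early retinal degeneration in people, varied more over the 20 libraries (coefficient of variation 10.9%) than Rdh8 (7.47%), and its mean was lower in old than in young controls. The young controls held 649, 514, 537 and 577 CPM, and the old controls 472, 528, 515 and 515 CPM. Of the young controls, 3 lay above all old controls and the lowest lay among them. The log2 change with age was -0.22 (SE 0.0909, 95% interval -0.415 to -0.0169; edgeR, adjusted p = 0.267). Young NACET libraries ranged from 428 through 517 to 553 CPM, a log2 change of -0.20 from young controls (SE 0.112, 95% interval -0.440 to 0.0421). Old NACET libraries ranged from 425 through 468 to 516 CPM, a change of -0.12 from old controls (SE 0.0645, 95% interval -0.260 to 0.0153). Between the NACET groups the change was -0.14 (SE 0.0837, 95% interval -0.320 to 0.0340). None of these passed the threshold.

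When the 5 libraries with a mean corneal epithelium level above 2 were left out, a choice made after seeing the data, 3 of the 9 genes were called with age under NACET (2.69% of all genes were). Rbp3 then stood at -0.67 (edgeR, adjusted p = 0.00232), Rdh8 at -0.30 (adjusted p = 0.0474) and Abca4 at -0.37 (adjusted p = 0.05 as rounded, just under the threshold). Rdh12 was at -0.30 (adjusted p = 0.0554). In that fit the young NACET group held 2 libraries, replicates 1 and 6. Replicate 1 was the highest of all young NACET libraries in Rbp3 (9881 CPM), Abca4 (2824 CPM) and Rdh8 (123 CPM). The part of corneal RNA in these results was not tested.

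The remaining dehydrogenases of photoreceptors were nearly level across groups. Rdh11, which acts in photoreceptors and pigment epithelium, ranged from 54.9 to 79.1 CPM over the 20 libraries, with group means of 72.8 in young controls, 66.7 in young NACET, 72.5 in old controls and 69.5 in old NACET mice. Its largest log2 change was -0.14 with NACET in young mice (95% interval -0.312 to 0.0411). Rdh13, a dehydrogenase of the mitochondrial membrane, varied least, with a coefficient of variation of 5.10% over all libraries and group means between 33.6 and 34.6 CPM. All of its 95% intervals in the 4 pairwise comparisons lay between -0.185 and 0.175. Dhrs3, a retinal reductase first described in cones, had means of 81.7 in young and 89.3 CPM in old controls, and 3 of 4 old controls lay above all young controls. Its log2 change of 0.08 (95% interval -0.0429 to 0.203) did not pass the threshold (edgeR, adjusted p = 0.516).

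Rlbp1, the cis-retinoid carrier of Muller glia, had higher means in old than in young mice with and without NACET, within overlapping ranges. It held 308, 371, 349 and 322 CPM in young controls and 400.3, 365, 354 and 371 CPM in old controls. The groups overlapped, with 2 of 4 old controls above all young ones. Young NACET libraries ranged from 321 through 354 to 373 CPM and old NACET libraries from 356 through 378 to 399 CPM. The log2 changes with age were 0.09 in controls (SE 0.0632, 95% interval -0.0433 to 0.233) and 0.06 under NACET (SE 0.0503, 95% interval -0.0497 to 0.163), neither past the threshold. With NACET they were 0.02 in old mice (95% interval -0.0788 to 0.115) and 0.05 in young mice (95% interval -0.0976 to 0.202).

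Rdh10, the retinol dehydrogenase of Muller glia and pigment epithelium that also starts retinoic acid synthesis, spread most within groups, with a coefficient of variation of 10.6% to 15.6%. Young controls held 28.9, 37.3, 36.9 and 42.6 CPM, and old controls 41.4, 44.3, 49.8 and 37.0 CPM. Old NACET libraries ranged from 32.1 through 38.1 to 42.4 CPM and young NACET libraries from 32.7 through 39.4 to 46.6 CPM. All groups overlapped. In old mice the log2 change with NACET was -0.20 (SE 0.0857, 95% interval -0.379 to -0.0124; edgeR, adjusted p = 0.313). It was -0.26 when old control replicate 4 was left out (edgeR, adjusted p = 0.264). Leaving out replicate 3 of that group instead gave -0.12 (edgeR, adjusted p = 0.556). The change with age in controls was 0.20 (95% interval -0.0470 to 0.440), and the interaction was -0.29 (95% interval -0.598 to 0.0148; edgeR, adjusted p = 0.817). Summed pigment epithelium markers had means of 161 CPM in old controls (range 96.8 to 222) and 99.1 CPM in old NACET mice (range 57.4 to 126). Of the 12 markers, 0 were called (0.543% of all genes were), but 11 were lower, with a median log2 change of -0.77. Among the 12, 8 had an unadjusted p under 0.05 by edgeR (14.4% of all genes had). Their part in the Rdh10 values was not tested.

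Levels of the photoreceptor genes were next set against 14 rod markers, as log2 CPM less the mean log2 CPM of the rod list. The rod list itself had a mean log2 CPM of 11.83 in young controls, 11.79 with NACET in young mice, 11.75 in old controls and 11.69 with NACET in old mice. Rbp3 stood at 1.06, 1.23, 1.25 and 1.06 above it in young controls and at 0.85, 1.06, 0.93 and 0.91 in old controls. Young NACET libraries lay at 1.10 to 1.33 and old NACET libraries at 0.84 to 0.93. All 10 old libraries again lay below all 10 young ones, although the highest old control and the lowest young control nearly touched. This loss of overlap on the rod scale was found in 0.806% of all genes. With the rod list as a covariate, chosen after seeing the data, the log2 change of Rbp3 with age was -0.26 in controls (edgeR, adjusted p = 0.103) and -0.37 under NACET (edgeR, adjusted p = 0.000470).

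Rdh12 had another pattern on this scale. The young controls lay at -2.69, -2.68, -2.72 and -2.66, all above the young NACET libraries, which lay at -2.91 to -2.76. This was 1 of 9 genes without overlap in a comparison where 0.169% of all genes had none. The groups nearly touched, at -2.72 in the lowest young control and -2.76 in the highest young NACET libraries. Those were replicates 5 and 6, of 119 days by their titles, and the 4 NACET mice of 129 days lay at -2.91 to -2.79. The part of age in this pattern was not tested. Old controls (-2.83 to -2.70) and old NACET libraries (-2.91 to -2.76) overlapped. On the rod scale, 0 of 9 genes were without overlap between the old groups (1.27% of all genes). With age, 2 of 9 were in controls (Rbp3 lower and Dhrs3 higher; 8.29%) and 1 of 9 under NACET (Rbp3; 2.18%).

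**Figure D4:**
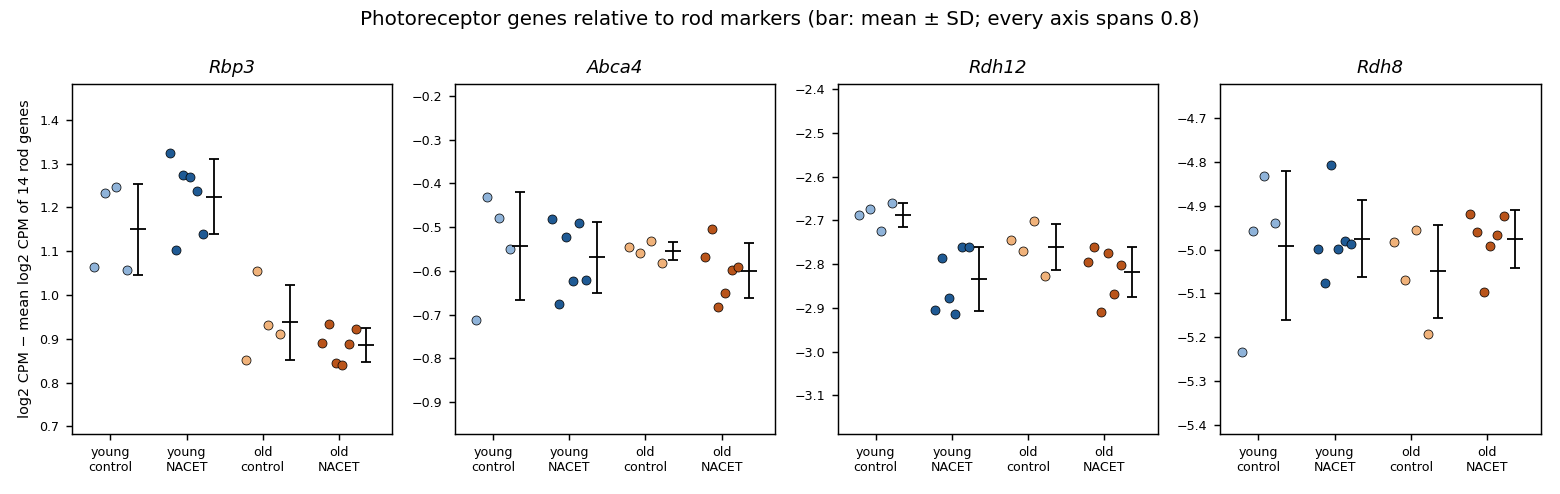
Log2 CPM of Rbp3, Abca4, Rdh12 and Rdh8 less the mean log2 CPM of 14 rod markers (vertical axes, all of the same span) in each library of the 4 groups, with mean ± SD as bars. Rbp3 is lower in every old library, Rdh12 is higher in every young control than in every young NACET library, and Abca4 and Rdh8 overlap between all groups.

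Across the 20 libraries, 4 genes of photoreceptors varied together. Among Rbp3, Abca4, Rdh12 and Rdh8, Pearson's r of log2 CPM was 0.575 to 0.804 in all 6 pairs, and no other pair of the 9 genes exceeded 0.5 (36 pairs, median r 0.0552). With group means removed, these 6 pairs had r of 0.523 to 0.878, and 12 of the 36 pairs exceeded 0.5. Dhrs3 then varied with the 4 genes too (r of 0.650 with Rdh8, 0.656 with Rdh12, 0.653 with Abca4 and 0.524 with Rbp3), and the other 2 pairs were Rdh11 with Dhrs3 (0.525) and Rdh13 with Rlbp1 (0.600). With the rod list, r was 0.866 for Rdh12, 0.817 for Abca4, 0.721 for Rbp3 and 0.615 for Rdh8. With the cone list it was higher for Rbp3 (0.855) and Rdh8 (0.739) and lower for Abca4 (0.755) and Rdh12 (0.634). With the Muller list it was -0.727 to -0.800. Rlbp1 had r of 0.616 with the Muller list and -0.612 with Rbp3, which were 0.447 and -0.239 with group means removed. Rdh10 had r between -0.374 and 0.205 with the rod, cone, Muller and bipolar cell lists and of 0.555 with the pigment epithelium list. These correlations describe 20 libraries that share groups, scaling and tissue, and CPM values of abundant genes constrain each other.

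**Figure D5:**
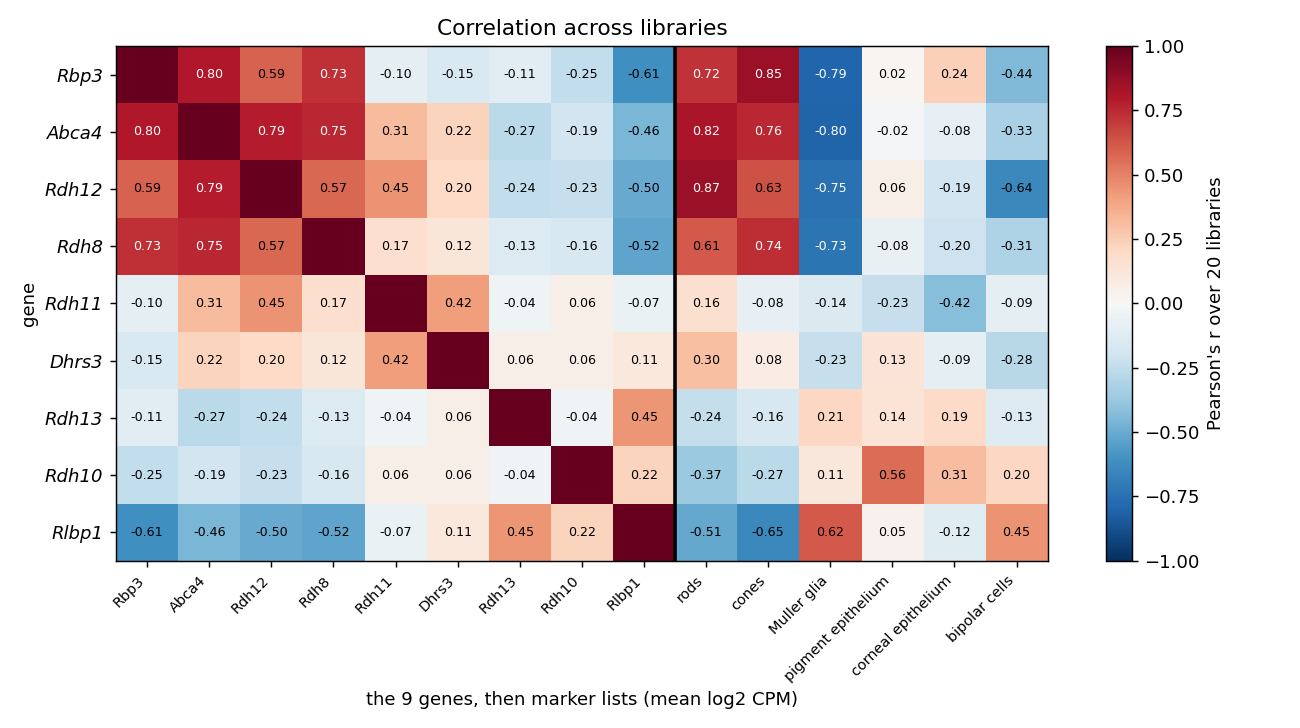
Pearson's r of log2 CPM over the 20 libraries between the 9 genes (left of the line) and with the mean log2 CPM of 6 marker lists (right of the line); colour runs from -1 to 1. The block of Rbp3, Abca4, Rdh12 and Rdh8 is positive throughout and negative with Rlbp1 and the Muller list.

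The genes most like each member by r over the 20 libraries, among 10356 other genes with a mean of at least 10 CPM, were read off in the same way. For Rbp3 the nearest was Thoc5 (r = 0.972), and for Abca4 they were Slc24a1 (0.955), the rod exchanger of sodium, calcium and potassium, and Agpat3 (0.917). Rdh12 was nearest to Ldha (0.875) and H3f3a (0.865), and Rdh8 to Gm16119 (0.894) and C2cd2l (0.870). Rlbp1 was nearest to Gm14204 (0.848) and Slc11a2 (0.847), and Rdh13 to Rnf126 (0.883) and Ppp1r16b (0.869). For Rdh11 the nearest were Gm7546 (0.847) and Tnfaip3 (0.810), for Dhrs3 Vopp1 (0.758) and Pawr (0.745), and for Rdh10 Tmem56 (0.752) and Zcchc4 (0.743). These r values include differences between groups. With group means removed they ran from 0.632 (Pawr with Dhrs3) to 0.940 (Slc24a1 with Abca4), and Thoc5 with Rbp3 had 0.897.

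Other genes of retinoid handling were taken from 4 lists of 45 genes. With age in controls, 36 were tested, and 4 were called higher and 0 lower (1.42% of all genes were called). Of these, 3, namely Rdh1, Rdh9 and Rdh16, are retinol dehydrogenases clustered on chromosome 10, and the other was the retinoic acid receptor gene Rarg. Rdh9 was at 0.698 to 1.09 CPM in young and 4.36 to 6.13 CPM in old controls, which is 2.51 on the log2 scale (SE 0.190; edgeR, adjusted p = 0.000103). Rdh1 (2.56) and Rdh16 (2.93) were also called, but exons of Rdh1 and Rdh9 share 464 bases and stretches of 50 bases recur between all 3, so their separate levels are uncertain. Rarg rose by 0.60 on the log2 scale (SE 0.122; edgeR, adjusted p = 0.0353). These low levels compare with 33.6 to 8116 CPM for the 9 genes in young controls.

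With age under NACET, 35 genes of the 4 lists were tested, and 4 were called higher and 2 lower (4.88% of all genes were called). Higher were the same 3 dehydrogenases and Cyp26a1, which breaks down retinoic acid (log2 change 0.88, SE 0.206; edgeR, adjusted p = 0.0211). Among the lower was Rdh5 (-0.64, SE 0.177; edgeR, adjusted p = 0.0489), the cis-retinol dehydrogenase of the pigment epithelium. Exons of Rdh5 share 720 bases with Bloc1s1. With NACET in old mice, 1 of 35 was called (0.543% of all genes were). This was Cyp26c1, at 0.354 to 0.435 CPM in old controls and 0.682 to 0.954 CPM in old NACET mice (log2 change 1.10, SE 0.219, edgeR adjusted p = 0.0456). With 668-day mice only, edgeR called 0 of all genes tested in this comparison. With NACET in young mice, 0 of 37 were called (0% of all genes) and 7 had an unadjusted p under 0.05 (4.36% of all genes). In the interaction these were 0 of 39 (0%) and 11 (6.19%).

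In the list of 8 visual cycle genes of the pigment epithelium, 2 were called with age under NACET (4.88% of all genes were), both lower, and 0 in the other comparisons. Its median log2 change was 0.50 with age in controls, -0.57 with NACET in old mice, 0.56 with NACET in young mice and -0.61 with age under NACET. Its most abundant genes were Rgr, an opsin of the pigment epithelium and Muller glia, and Rrh, an opsin of its microvilli. Rgr had means of 27.1 and 55.6 CPM in young and old controls and of 51.7 and 32.6 CPM in young and old mice with NACET, and ranged from 12.6 to 80.6 CPM over the libraries. Rrh stayed at group means of 16.9 to 17.6 CPM. The part of carried-over pigment epithelium in these values was not tested. In the other lists, the most abundant genes had means over all libraries of 67.7 CPM (Adh5), 29.6 (Dhrs7), 64.4 (Rxra), 59.2 (Rxrb), 169 (Scarb1) and 63.8 CPM (Slc27a4), and none was called in any comparison.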

How the data were processed

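Retinal polyA RNA was made into TruSeq libraries and sequenced in single-end reads. The authors aligned reads to mm9 with TopHat 2.1.0 and counted them over exons with HTSeq 0.11.2 without strand. The annotation used for counting is not given in the sources used here. The deposited values are raw counts per gene, with no normalization. A row with no gene name (at most 0.00218% of counts) and the summary rows were left out. Reads in no feature were 14.1% to 20.5%.

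CPM is counts per M gene counts of a library, and levels between genes were divided by annotated exon length (mm9). Comparisons used edgeR 4.0.16 (R 4.3.3): TMM scaling, filterByExpr and the quasi-likelihood test on the 2 groups compared, or all 4 for the interaction, with Benjamini-Hochberg adjustment over all genes tested and a threshold of 0.05. Positive changes are higher in the second-named condition (old, or NACET). Intervals are 95%. Log2 CPM for lists and correlations used a prior count of 1. The study used DESeq2, run here (1.42.0) as an alternative beside other scalings, filters, covariates, subsets and single libraries left out. The edgeR step was tested on simulated data. Each library is 1 mouse, and replicates differed by more than sampling noise (chi-square per degree of freedom 2.52 to 32.2 in 42 pairs).

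The 9 genes and all lists were chosen with earlier results of these data known. Named besides the 9 were pathway genes called in any comparison, the 2 most abundant genes of each list, list-defining markers, and the 2 genes with the highest r to each of the 9. Some genes that this rule names are not reported here.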

Additional observations from a re-analysis of the deposited data

Results flagged for a closer look

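In 4 of 36 sets of CPM values (9 genes in 4 groups), 1 library lay far from the others of its group by Dixon's criterion, which chance meets in about 1 in 20 groups. Rdh11 was lowest in young NACET replicate 4, at 54.9 CPM against 66.8 to 72.4 CPM in the other 5 libraries. It was highest in old control replicate 3, at 78.1 CPM against 70.0 to 71.2 CPM in the other 3. Rdh13 was highest in old control replicate 1, at 36.3 CPM against 33.5 to 33.7 CPM. Rbp3 was highest in young NACET replicate 1, at 9881 CPM against 7712 to 8193 CPM, and Rbp3 was called with age under NACET without each of the 12 libraries in turn.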

How the results depend on the processing

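Of 1044 values of the 9 genes under the alternatives, 46 turned sign and 4 crossed the threshold. The number of genes called with age was 0 by edgeR and 1 by DESeq2 (Rbp3). Under NACET it was 1, and 0 with old mice of 668 days only. It was 3 without the libraries with a mean corneal level above 2, a setting chosen after seeing the data, as were the rod covariate and the Xist-negative subset (Rbp3 with age -0.40, edgeR, adjusted p = 0.453). Leaving out single libraries gave 0 to 0 in the other 4 comparisons and 1 to 1 with age under NACET. Replicate numbers do not pair the mice (correlations of same-numbered deviations -0.245 to 0.589). With the replicate block, 0, 0, 0, 1 and 0 genes were called with age, NACET in old mice, NACET in young mice, age under NACET and the interaction, and Rbp3 stood at -0.49 under NACET (edgeR, adjusted p = 0.0337). Over all genes the block gave 163, 17, 6, 422 and 0 calls against 234, 90, 0, 795 and 0, and DESeq2 gave 721, 375, 0, 1326 and 86.

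All sign changes concerned log2 changes of values that were not called, and their cause was not tested. With NACET in old mice, Rdh8 was -0.0295 with the replicate block, -0.0276 with 668-day mice only and -0.0291 with the age cohort as covariate, and Rlbp1 was -0.0091, -0.0032 and -0.0045. With NACET in young mice, Rdh10 was -0.0180 (replicate block), Rdh8 0.0394 (labelled males only), Rdh13 -0.0424 (batch tag), -0.0469 (title age) and -0.0462 (119-day mice only), and Rbp3 -0.0252 (batch tag). Without the corneal libraries, Rdh8 was 0.11, Rdh13 -0.0069 and Abca4 0.11 there, Rdh11 was -0.0796 with age under NACET, and the interaction was -0.0764 for Rdh8, -0.0554 for Rdh12 and -0.0348 for Rdh11. With age under NACET, Rdh10 was 0.0201 (sex covariate) and 0.0126 (males only), and Dhrs3 0.0648 (rod covariate). The interaction of Rdh8 was -0.0355 in males only. Without single libraries, values ran from -0.0922 to 0.0292 for Abca4, -0.00198 to 0.106 for Rdh11, -0.0126 to 0.126 for Rdh12 and -0.00239 to 0.0902 for Rdh8 in the interaction. They ran from -0.000100 to 0.0700 for Dhrs3, -0.0430 to 0.0795 for Rbp3, -0.00904 to 0.0517 for Rdh13 and -0.0897 to 0.00857 for Rdh8 with NACET in young mice. In old mice with NACET they ran from -0.0293 to 0.0326 for Rdh8 and -0.00151 to 0.0338 for Rlbp1, and with age under NACET from -0.0555 to 0.0219 for Dhrs3 and -0.0594 to 0.0351 for Rdh11.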
